A study of Mus musculus with 6 samples.

Results

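Immediate early genes are transcribed within minutes of a stimulus, without new protein synthesis, and were followed here in the cerebellum of L1cam knockout mice. The members were the probe sets whose only annotated gene symbol is Fos, Fosb, Jun, Junb, Egr1, Nr4a1, Ier2, Dusp1, Arc or Ccn2. Of these 10 genes 9 were represented, by 12 of the 12422 probe sets tested. No probe set carried Arc as its only symbol, so Arc, a synaptic protein of active neurons, has no values. Fos, Junb and Egr1 had 2 probe sets each.

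The arrays, Affymetrix Murine Genome U74Av2, held RNA from the whole cerebellum at postnatal day 11. There were 3 L1cam knockouts labelled male (-/Y) and 3 wild type siblings of unstated sex, all of the congenic strain 129S2/SvPasCrlf, with 1 array per replicate. How the gene was altered is not given in the sources used here. Values are log2 expression values summarised per probe set. In bulk tissue, fewer cells of a type and less RNA per cell cannot be told apart.

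In neurons these genes are switched on by calcium entry and by growth factor signalling through ERK kinases, which activate CREB at cAMP response elements and SRF at CArG boxes. Their products fall into classes. Fos, Fosb, Jun and Junb are subunits of the AP-1 transcription factor, Egr1 and Nr4a1 are a zinc finger factor and an orphan nuclear receptor, and Ier2 is a nuclear regulator. Dusp1 is a phosphatase that turns MAP kinases off, and Ccn2 is a secreted matrix protein made mainly by vascular and connective tissue cells. In the brain the level of such transcripts follows recent neuronal activity and handling.

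Promoter sequences from RefSeq (GRCm38.p6) were matched for 6 of the 10 genes: Fos, Fosb, Jun, Junb, Nr4a1 and Dusp1. The 250 bases before the transcription start are printed for Fos, Nr4a1 and Dusp1, which read highest on the same array, and for Jun, which hardly varied. Capitals mark TGACG, the core of the cAMP response element, on either strand (CGTCA as printed), and TATAAA. The windows lie at chr12:85473640-85473889 (plus strand, Fos), chr15:101266596-101266845 (plus strand, Nr4a1), chr17:26508473-26508722 (minus strand, Dusp1) and chr4:95052223-95052472 (minus strand, Jun).
Fos: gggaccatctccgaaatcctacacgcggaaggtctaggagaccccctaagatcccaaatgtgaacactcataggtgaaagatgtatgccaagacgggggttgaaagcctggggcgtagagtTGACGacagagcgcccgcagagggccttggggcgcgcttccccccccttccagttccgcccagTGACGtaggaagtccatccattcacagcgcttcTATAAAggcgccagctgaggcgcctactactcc
Nr4a1: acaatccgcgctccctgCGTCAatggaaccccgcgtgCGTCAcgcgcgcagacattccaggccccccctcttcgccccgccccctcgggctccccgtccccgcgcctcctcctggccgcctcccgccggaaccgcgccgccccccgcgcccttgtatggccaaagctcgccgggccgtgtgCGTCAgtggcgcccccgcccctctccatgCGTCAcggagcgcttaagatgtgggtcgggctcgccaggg
Dusp1: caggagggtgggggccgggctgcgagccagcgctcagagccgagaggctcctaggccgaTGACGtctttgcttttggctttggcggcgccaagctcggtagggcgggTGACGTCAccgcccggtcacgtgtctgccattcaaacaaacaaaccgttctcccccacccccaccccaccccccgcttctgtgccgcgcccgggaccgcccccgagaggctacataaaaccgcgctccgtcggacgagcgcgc
Jun: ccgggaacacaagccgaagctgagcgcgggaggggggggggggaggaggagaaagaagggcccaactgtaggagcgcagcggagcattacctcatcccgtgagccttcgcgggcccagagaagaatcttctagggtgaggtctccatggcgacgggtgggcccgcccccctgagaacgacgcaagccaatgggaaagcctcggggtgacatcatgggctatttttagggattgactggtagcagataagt

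TGACG was found in 5 of the 6 matched promoters, all but Jun, and in 17.8% of all 32851 promoter windows of the same length. Fosb and Junb, not printed, also hold it, and both genes read highest on knockout 2. Fos holds it 66 to 62 and 129 to 125 bases before the start, and TATAAA 33 to 28 bases before. Nr4a1 holds 4 copies, all on the opposite strand. The full palindrome TGACGTCA, which contains the core on both strands, was found only in Dusp1 among the 6, 143 to 136 bases before the start, and in 1.55% of all windows. The GC box GGGCGG was in 5 of the 6 against 32.7% of all, the Egr element GCGGGGGCG in Fosb and Nr4a1 against 2.57%, and TATAAA in Fos against 12.4%. No CArG box and no AP-1 site (TGACTCA or TGAGTCA) lay in the 6 windows, against 1.47% and 4.46% of all. Only exact matches were counted, so the similar TGACATCA in the Jun window was not. Sequence farther from the start was not searched and Egr1 had no matched promoter. These absences therefore hold for the 6 windows only, and whether the genes have such sites elsewhere was not tested. Both strands were searched. The 6 windows had a GC content of 58.4% to 74.4%, against a median of 52.4%, and these matches are descriptions of the letters only.

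L1cam, the targeted gene, read 8.25, 8.01 and 7.91 in the knockouts, against 8.79, 8.48 and 8.73 in wild type, with no overlap. The difference was -0.60 (limma adjusted p = 0.841), the largest decrease of all probe sets. Its limma p before adjustment, 0.000149, was the smallest of all. The array labelled knockout 1 stood apart at 2 Y-linked probe sets, with Eif2s3y at 7.11 against 8.59 or more on the other arrays and Uty at 6.67 against 7.32 to 7.45, which goes against its male label. On it the Gapdh control at the 3' end exceeded that at the 5' end, a gap that widens in shorter RNA, by 0.67, against 0.13 or less elsewhere. Markers of cerebellar neurons such as Pcp2, Car8 and Zic1 were bright, with a mean over 11 genes of 11.83 to 11.94 in the knockouts and 11.82 to 11.99 in wild type. The choroid plexus transcript Ttr was low on knockout 3 (10.20) and wild type 1 (9.71), against 12.13 to 12.56 on the other 4 arrays.

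No immediate early gene passed the test of genotype, and among the members Fos had the widest spread between animals. Fos, the AP-1 subunit most used as an activity marker, read 7.64, 7.43 and 8.07 in the knockouts, against 7.60, 7.42 and 8.46 in wild type, at probe set 160901_at. The arrays numbered 3 were the highest of each genotype, wild type 3 was the highest of all, and the groups overlapped. Highest and lowest array differed 2.05-fold. The SD was 0.33 in the knockouts and 0.56 in wild type, and pooled within genotype it was 0.46, at percentile 99.9 of all probe sets. The genotype difference of -0.11 (SE 0.24, 95% interval -0.65 to 0.42, limma adjusted p = 0.968) was smaller than this spread. It turned to 0.20 without wild type 3 and to 0.029 without knockout 2, and was -0.32 without wild type 2, -0.29 without knockout 3 and -0.23 without wild type 1.

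The other Fos probe set, 161716_at, read 7.41, 7.48 and 7.36 in the knockouts, against 7.52, 7.21 and 7.65 in wild type. Wild type 3 was again the highest array and wild type 2 the lowest, but knockout 3 was the lowest knockout here. Its pooled SD of 0.16 lay at percentile 92.5, and at percentile 38.6 without wild type 2. The Fos probe sets correlated at r = 0.57 over 6 arrays (Spearman 0.49, exact permutation p = 0.268 and 0.356, adjusted 0.402 and 0.533 over 3 such pairs), and at r = 0.46 without knockout 3 and wild type 3. Both lay in the lower part of the array's range, at percentiles 28.1 and 22.7 of mean level.

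The other AP-1 subunits varied far less. Fosb, a close relative of Fos, read 9.62, 9.82 and 9.61 in the knockouts, against 9.81, 9.69 and 9.80 in wild type. Knockouts 1 and 3 lay below all wild type arrays and knockout 2 above them, so the groups overlapped. The difference was -0.08 (95% interval -0.25 to 0.09). Jun, the common dimer partner of Fos proteins, read 9.06, 9.00 and 9.01 in the knockouts, against 9.02, 9.09 and 9.03 in wild type. Its 6 arrays lay within 0.09 log2 of each other, with a pooled SD of 0.036 at percentile 5.40, and the difference was -0.022 (95% interval -0.15 to 0.11), positive after quantile normalization, median centring or cyclic loess.

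Junb, an AP-1 subunit with weaker transactivation than Jun, read 9.83, 10.07 and 9.97 in the knockouts, against 9.92, 9.97 and 9.98 in wild type, at probe set 102363_r_at. At 102362_i_at it read 9.04, 9.24 and 9.22 in the knockouts, against 9.17, 9.21 and 9.24 in wild type. Knockout 1 was the lowest array and knockout 2 the highest at both. The Junb probe sets, annotated to the same source sequence, moved together over the arrays (r = 0.90, Spearman 0.94, exact permutation p = 0.00278 and 0.0167, adjusted 0.00833 and 0.05 over 3 pairs), also without knockouts 1 and 2 (r = 0.95). Their differences were -0.0027 and -0.038, and 0.059 and 0.025 without knockout 1, the array with the wide Gapdh gap.

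**Figure D1:**
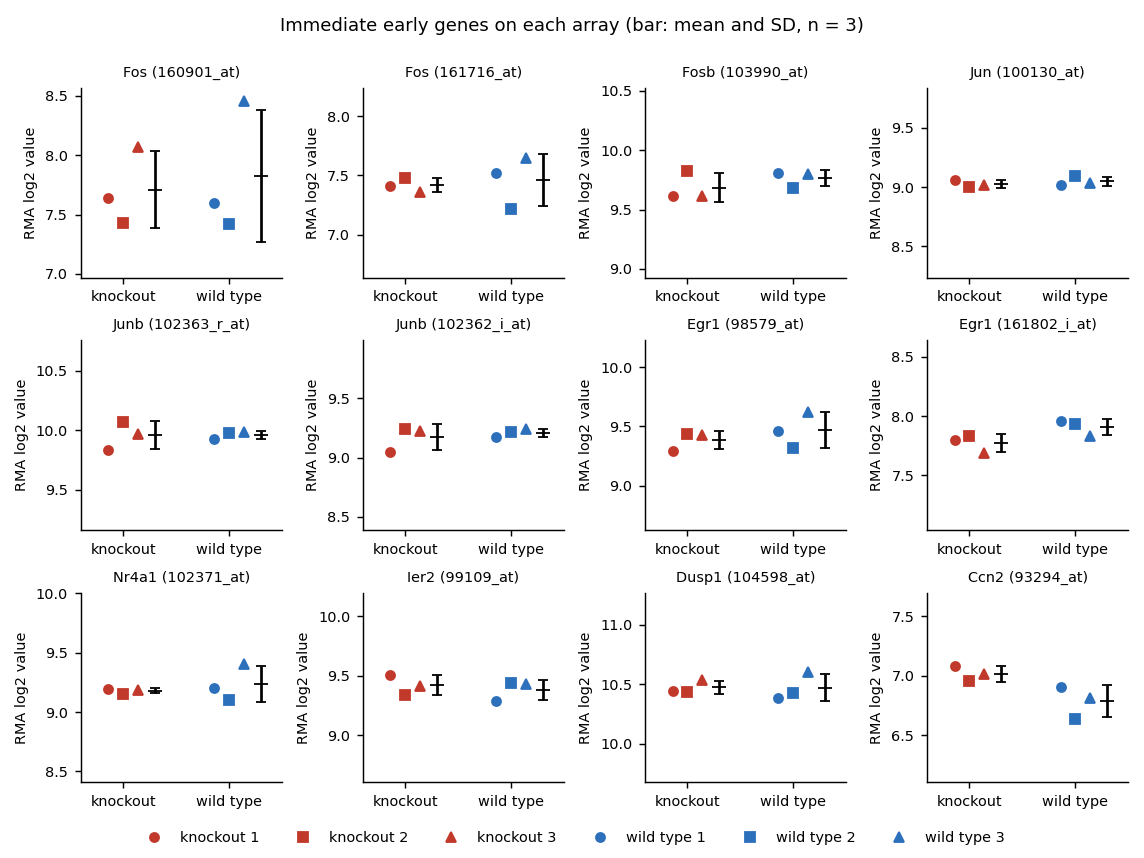
RMA log2 value (vertical axes, each spanning the same number of log2 units) of the 12 probe sets on the 3 knockout and 3 wild type arrays, with the mean and SD of each genotype (n = 3). Wild type 3 (triangle) stands highest for both Fos probe sets, Egr1 98579_at, Nr4a1 and Dusp1, and only Ccn2 has genotypes that do not overlap.

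Among the other transcription factors, Egr1 read 9.30, 9.43 and 9.43 in the knockouts, against 9.46, 9.32 and 9.62 in wild type, at probe set 98579_at. Wild type 3 was highest and the groups overlapped, with a difference of -0.08 (95% interval -0.27 to 0.10, limma adjusted p = 0.932) that was -0.0070 without wild type 3. The dimmer probe set 161802_i_at read 7.80, 7.84 and 7.69 in the knockouts, against 7.96, 7.93 and 7.83 in wild type. There wild type 3 was the lowest wild type array, and knockout 2 lay just above it. The difference of -0.13 (SE 0.07, 95% interval -0.28 to 0.02, limma adjusted p = 0.922) kept its sign under every alternative that retained the probe set, ranging from -0.17 to -0.088. The Egr1 probe sets did not track each other (r = -0.032, Spearman 0.31, exact permutation p = 0.949 and 0.564, adjusted 0.949 and 0.564; r = -0.19 without knockout 1 and wild type 3).

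Nr4a1 read 9.19, 9.15 and 9.19 in the knockouts, against 9.20, 9.10 and 9.40 in wild type. The knockouts were nearly level, with an SD of 0.022, and wild type 3 alone stood out. The difference of -0.06 (95% interval -0.23 to 0.12) was 0.025 without wild type 3. Ier2 read 9.51, 9.34 and 9.41 in the knockouts, against 9.28, 9.43 and 9.43 in wild type. Its order of arrays was unlike that of Fos, with knockout 1 highest and wild type 1 lowest, and the difference was 0.04 (95% interval -0.12 to 0.20).

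Dusp1, the feedback phosphatase, read 10.44, 10.44 and 10.54 in the knockouts, against 10.39, 10.43 and 10.60 in wild type. As for Fos 160901_at, the arrays numbered 3 were the highest of each genotype. The genotype means were both 10.47, with an interval of the difference from -0.16 to 0.16.

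Ccn2 was the one member whose genotypes did not overlap. It read 7.08, 6.95 and 7.02 in the knockouts, against 6.91, 6.64 and 6.81 in wild type, so the lowest knockout stood just above the highest wild type array. The means were 7.02 ± 0.07 in the knockouts and 6.79 ± 0.14 in wild type (SD, n = 3 each), a difference of 0.23 (SE 0.08, 95% interval 0.06 to 0.40), or 1.17-fold. It did not pass over all probe sets (limma adjusted p = 0.922, 0.465 or more under every alternative), and an exact permutation test (2-sided) gave p = 0.1, which is the lowest value possible with 3 arrays per genotype. The difference was 0.20 without knockout 1 and between 0.16 and 0.29 over all single omissions. The probe set was dim, at percentile 15.4 of mean level.

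Beside Ccn2, 13 of 20 probe sets for vascular and meningeal markers had a higher knockout mean (median 0.048), against 37.7% of all probe sets, and none passed. Col3a1, a fibrillar collagen, differed by 0.21, 0.17 and 0.14 at its 3 probe sets. The other fibrillar collagens of the list gave smaller differences of either sign, with Col1a1 at -0.045 and 0.043 and Col1a2 at 0.022 and, with no overlap, -0.083. The mean level over the 15 marker genes was 9.59 to 9.62 in the knockouts and 9.52 to 9.60 in wild type. Among 4 blood genes the alpha globin Hba-a1 differed by 0.29, Hbb-b2 by 0.24 and Alas2, of heme synthesis, by 0.14, while Slc4a1, the red cell anion exchanger, differed by -0.054, so that 3 were higher and 1 lower (adjusted p of at least 0.841). The list's mean was 11.48 to 11.66 in the knockouts and 11.33 to 11.51 in wild type. The part of these cells in the Ccn2 value was not tested. Ccn1, the nearest relative of Ccn2, differed by 0.05 (SE 0.08).

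**Figure D2:**
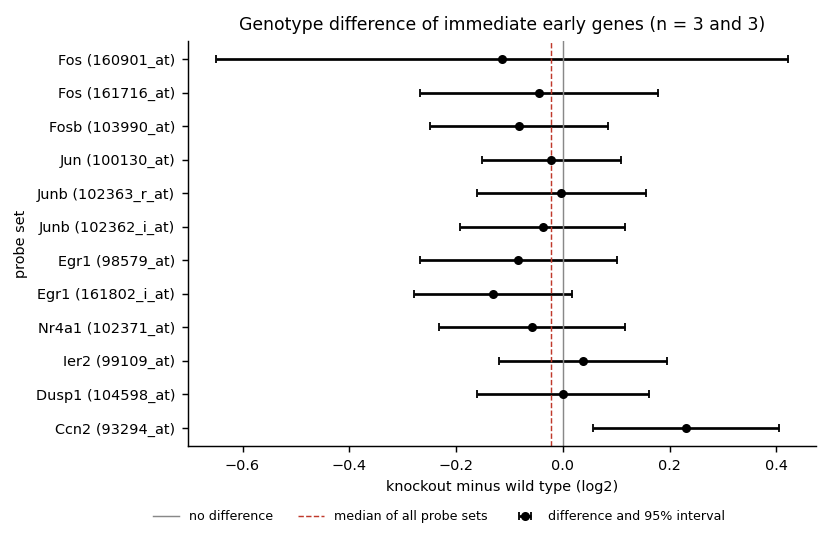
Knockout minus wild type difference (horizontal axis, log2) of each of the 12 probe sets with its 95% interval from limma, and the median of all probe sets (dashed). The interval reaches 0 for 11 of the probe sets and lies above 0 for Ccn2, from 0.06 to 0.40.

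Counted together, 0 of the 12 probe sets passed an adjusted p of 0.05 in limma, as did 0 of all 12422 (0%). The limma p before adjustment was under 0.05 for 1 of 12, Ccn2, against 5.08% of all probe sets. The genotypes did not overlap for 1 of 12, against 10.4% of all in either direction and 3.76% with the knockout higher. The members' counts do not stand apart from this background. Knockout means were higher at 3 probe sets and lower at 9, with a median of -0.042, where 37.7% of all probe sets were higher and their median was -0.023. The members' median standard error of 0.074 gave an unadjusted 95% interval of 0.16 to either side at the median. The adjusted test needs more than that, since L1cam at -0.60 did not pass it.

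**Figure D3:**
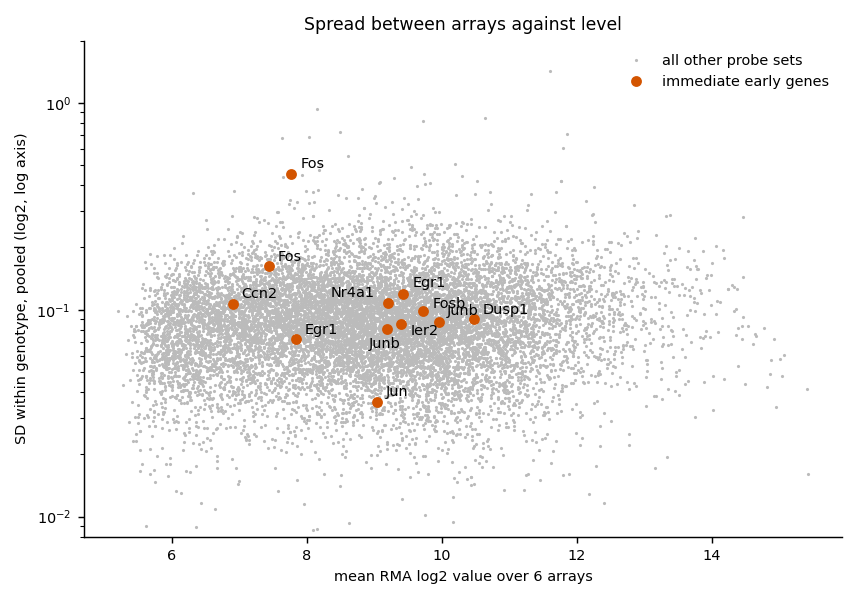
SD between arrays of 1 genotype, pooled over both (vertical log axis), against the mean RMA log2 value (horizontal axis) for the members (orange) and all other probe sets (grey); 3 probe sets lie below the axis limit of 0.008. Fos 160901_at stands near the top at 0.46 and Jun near the bottom at 0.036, while the others sit within the main cloud.

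The wide spread of Fos 160901_at was not seen in most other members, nor was it limited to the members. The median pooled SD of the 12 probe sets was 0.094, against 0.086 over all probe sets, and 8 of the 12 lay above that median of all. Percentiles ran from 5.40 for Jun to 99.9 for Fos 160901_at. Fos 160901_at stayed at percentile 99.1 or above when any 1 array was left out and after quantile normalization, median centring or cyclic loess. Nr4a1 and Dusp1, at percentiles 69.5 and 54.4, were at 12.1 and 17.3 without wild type 3. Outside the members, Klf10 lay at percentiles 99.0 and 99.2 and Id3 at 99.1. Gabra6, a GABA-A receptor subunit of maturing granule neurons, lay at percentiles 99.8 and 99.8 at its 2 probe sets. At 92939_at Gabra6 read 11.80, 12.11 and 12.52 in the knockouts, against 11.90, 12.54 and 12.69 in wild type. The arrays numbered 3 were the highest of each genotype there too, at both Gabra6 probe sets. Wild type 3 exceeded the mean of the other 5 arrays by 0.52 and 0.62. Wild type 2 came next at both, at 92940_s_at with 12.12 against 12.28 on wild type 3. The part of this in the Fos value was not tested.

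Wild type 3 was the highest array at 5 of the 12 probe sets, those of Fos (both), Egr1 98579_at, Nr4a1 and Dusp1, and the lowest at none. Over all probe sets it was the highest at 16.9% and the lowest at 15.2%. This array was singled out after its values were seen. Against the mean of the other 5 arrays it was higher by 0.83 at Fos 160901_at (percentile 99.98 of that deviation over all probe sets), 0.25 at Fos 161716_at (97.3), 0.23 at Egr1 98579_at (96.8), 0.23 at Nr4a1 (96.8) and 0.15 at Dusp1 (91.7). The deviation was -0.013 at the other Egr1 probe set, 161802_i_at (percentile 40.4). It was -0.0071 at Jun, 0.028 and 0.062 at Junb, 0.033 at Ier2, 0.093 at Fosb and -0.11 at Ccn2. Its Gapdh gap was -0.048, the lowest of the 6 arrays. Mean levels on wild type 3 were the highest of the 6 for cerebellar neuron markers (11.99) and the lowest for vascular and meningeal (9.52) and blood (11.33) markers. Wild type 2, the lowest array at both Fos probe sets, had means of 11.97, 9.60 and 11.34 for the same lists. The part of these cells in the Fos value was not tested.

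**Figure D4:**
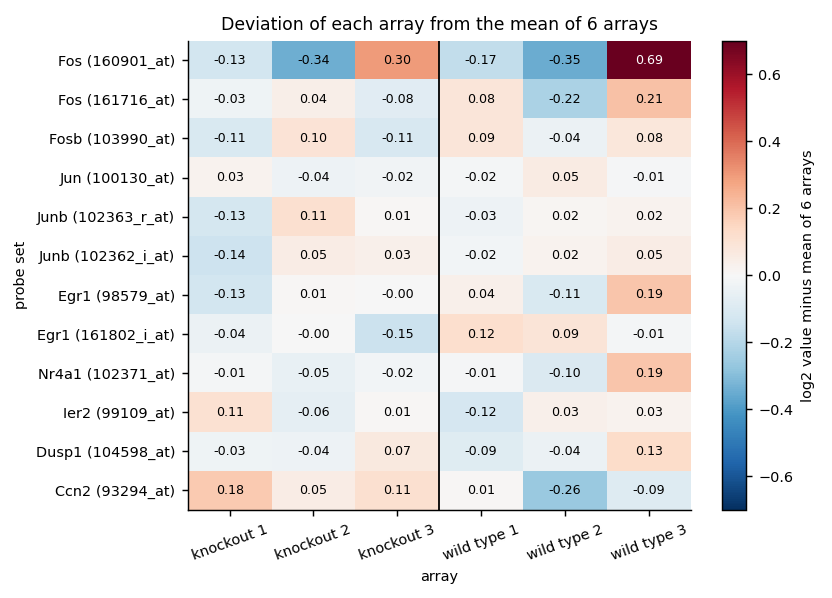
Deviation of each array (columns) from the mean of 6 arrays, in log2, for the 12 probe sets (rows), red above and blue below that mean. Wild type 3 is above the mean for Fos, Egr1 98579_at, Nr4a1 and Dusp1 together, and Ccn2 is above it on all 3 knockouts.

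With the probe set of highest mean for each gene, the 9 genes gave 36 pairs, of which 18 correlated above 0 and 18 below 0 over the 6 arrays (median r of 0.011). The even split depended on the scaling, with 20 above 0 after quantile normalization, 23 after median centring or cyclic loess, and 25 with genotype and replicate means taken out. None passed after adjustment over the pairs (smallest adjusted exact permutation p = 0.325 for Pearson and 0.852 for Spearman), and 3 had an unadjusted p under 0.05. Fos and Nr4a1 had r = 0.88 (Spearman 0.77, exact permutation p = 0.0167 and 0.103, adjusted 0.325 and 0.852), and also r = 0.88 without knockout 3 and wild type 3. Fos and Dusp1 had r = 0.93 (Spearman 0.83, exact permutation p = 0.0181 and 0.0583, adjusted 0.325 and 0.852), but r = -0.28 without the same arrays, so that this relation rests on them. Egr1 and Nr4a1 had r = 0.84 (Spearman 0.60, exact permutation p = 0.0472 and 0.242, adjusted 0.567 and 0.852), and r = 0.93 without knockout 1 and wild type 3. These relations hold only for the probe sets used. The dimmer Egr1 and Fos probe sets were not entered, and they had r = -0.032 and 0.57 with the ones used. Fos and Fosb, close relatives, had r = -0.00042 (Spearman -0.37, exact permutation p = 0.999 and 0.497, adjusted 0.999 and 0.852), and r = -0.34 without knockout 3 and wild type 3. Jun and Junb, also related, had r = -0.48 (Spearman -0.37, exact permutation p = 0.343 and 0.497, adjusted 0.823 and 0.852), and r = -0.71 without knockout 1 and wild type 2.

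The genes most like the members were sought among 6680 probe sets with 1 symbol in the upper 60% of mean level, by Pearson correlation over the 6 arrays after taking out the genotype means. For Fos these were Myh9 (r = 0.997), Ube2k (0.994), Wnk1 (0.994), Ylpm1 (0.989) and Lin7c (0.987). For Egr1 they were Cish (0.992), Prrg2 (0.992), Smad4 (0.987), Gbf1 (0.986) and Jkamp (0.986). The mean profile of the 9 genes was not scaled per gene, so Fos, with the widest spread, weighed most in it. For that profile the genes were Usp9x (0.998), Sgip1 (0.991), Kif5b (0.985), Rad23b (0.983) and Ankrd13a (0.981). With so few arrays such values come easily, and 85, 81 and 69 probe sets had an r over 0.9 for the 3 profiles. The size of their movement differed: wild type 3 exceeded the mean of the other wild type arrays by 0.15 for Myh9 and 0.053 for Cish, but 0.57 for Usp9x and 0.88 for Sgip1.

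Other immediate early genes showed no genotype call either. Their counts of higher and lower stand beside 37.7% higher in the knockout over all probe sets. Of 14 further AP-1, EGR and NR4A factors 10 were represented, by 14 probe sets, with 3 higher in the knockout, 11 lower and 0 passing (median -0.033). Egr2 read 7.68, 7.79 and 7.65 in the knockouts, against 7.71, 7.70 and 7.73 in wild type, all within 0.13 log2. Mafg, a small Maf partner of AP-1-like factors, differed by -0.10 with no overlap at one probe set and by 0.02 at the other. Atf3, a stress-induced factor, differed by -0.15 at 104156_r_at, where knockout 3 read 9.23 against 9.62 to 9.70 on the other arrays, and at 2 further probe sets by 0.02 and -0.03. Fosl1 differed by -0.08. After Atf3 the widest spreads were those of Batf, an AP-1 family partner of Jun proteins (pooled SD 0.091, difference -0.091), and of Nr4a2, a relative of Nr4a1 (0.090, difference -0.017).

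Of 33 further regulators 30 were represented, by 41 probe sets, with 21 higher, 20 lower, 0 passing and a median of 0.00037. Nfkbia, the inhibitor of NF-kappaB, differed by 0.18 with no overlap at one probe set and by 0.09 with overlap at the other. The survival factor Mcl1 differed by 0.17, and Crem, a CREB family member, by -0.17 and -0.15. The widest spreads belonged to Klf10, a TGF-beta-induced zinc finger factor, and Id3. Klf10 at 99602_at read 10.51, 10.29 and 9.95 in the knockouts, against 10.19, 10.02 and 9.73 in wild type. There the arrays numbered 3 were the lowest of each genotype, where Fos 160901_at was highest.

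Of 34 further effectors 25 were represented, by 30 probe sets, with 11 higher, 19 lower, 0 passing and a median of -0.026. Bdnf, a neurotrophin, read 7.03, 7.13 and 7.08 in the knockouts, against 7.28, 7.43 and 7.33 in wild type (difference -0.26, SE 0.06, limma adjusted p = 0.841). Plk2, an activity-regulated kinase, read 11.04, 10.99 and 11.05 in the knockouts, against 10.81, 10.80 and 10.88 in wild type (0.20, SE 0.06, adjusted p = 0.885). Odc1, the first enzyme of polyamine synthesis, read 10.12, 10.07 and 9.85 in the knockouts, against 9.82, 9.78 and 9.55 in wild type (0.30, SE 0.09, adjusted p = 0.906). None of these passed, although their genotypes did not overlap. The widest spreads were those of Ccl2 (pooled SD 0.19), Dusp6 (0.18) and Gem (0.15). Of 35 upstream activators 24 were represented, by 35 probe sets, with 14 higher, 21 lower, 0 passing and a median of -0.025. The kinase Braf differed by -0.20 at one probe set and -0.02 at the other, Atf2 by -0.22 and -0.15, and Rps6ka3 by 0.12 at a probe set near the bottom of the range.

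No marker list of the cell types the tissue could hold gave a call, and these lists are values beside the results above. Over all probe sets 37.7% had a higher knockout mean. Cerebellar neuron markers were higher in the knockouts at 3 of 14 probe sets and lower at 11 (median -0.046), with Atoh1, a granule progenitor factor, at -0.13, En2 at -0.18 and Pax6 at 0.17. Microglial markers had 5 of 9 higher (median 0.011), C1qb differing by 0.19 and -0.11 at separate probe sets and Cx3cr1 by -0.11, with mean levels of 8.90 to 9.04 in the knockouts and 8.96 to 9.09 in wild type. Choroid plexus markers had 2 of 4 higher (median 0.018). Their mean over 3 genes includes Ttr, the most variable of them, and so largely repeats it. These means were 10.14, 10.20 and 9.10 in the knockouts, against 9.06, 10.14 and 10.04 in wild type. Wild type 3 and knockout 3, the arrays highest for Fos 160901_at, lay apart there. Folr1 differed by -0.05 and 0.06. Forebrain markers had 2 of 4 higher (median -0.031), Dlx2 at -0.08, Neurod6 at 0.06 and Tbr1 at -0.08, with means of 7.17 to 7.30 in the knockouts and 7.24 to 7.26 in wild type.

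**Figure D5:**
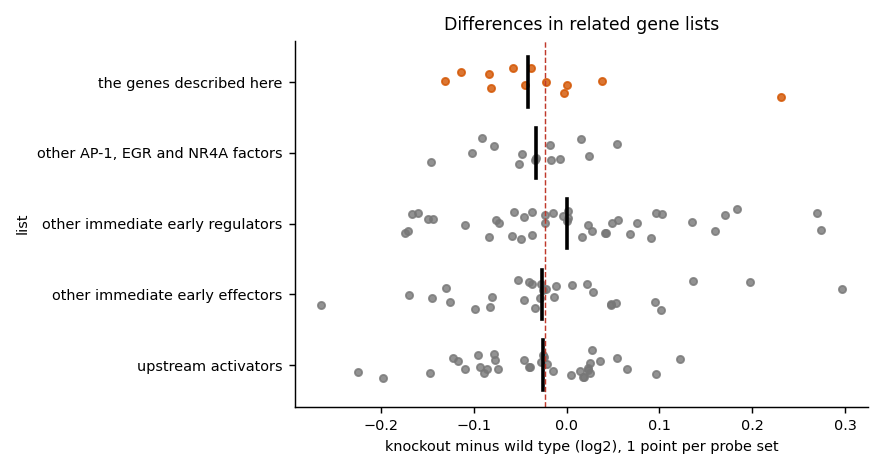
Knockout minus wild type difference (horizontal axis, log2) of every probe set of the members and of 4 related lists, with each list's median (black bar) and the median of all probe sets (dashed). The list medians lie between -0.042 and 0.00037, and Ccn2 stands at the right of the members.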

How the data were processed

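The deposited values are log2 expression values that the authors made with RMA, per the submitters' processing notes (background correction, normalization across arrays, 1 summary per probe set). Version, settings and genome build were not given in the sources used here. RMA draws arrays towards a common distribution, so a global change in RNA per cell is not measured. Of 12488 probe sets 66 array controls were left out. The platform annotation gave 1 symbol to 10833 of the 12422 others, several to 396 and none to 1193, and only the first were named.

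Genotypes were compared with limma 3.58.1 in R 4.3.3 (lmFit, eBayes, 2-sided), with Benjamini-Hochberg adjustment over all 12422 probe sets and a threshold of 0.05. Exact permutation tests and correlations used SciPy 1.17.1. Named were all member probe sets, the 5 best correlates of Fos, of Egr1 and of the mean profile, the 3 smallest p-values of each related list, and the 3 widest spreads of each immediate early list; other genes were chosen after seeing their values. Percentiles rank a probe set among all tested. The limma procedure was run on simulated independent normal values with limma's own prior variances. These held no array-wide differences, so its behaviour on arrays such as knockout 1 was not tested. The members and lists were chosen with earlier results of these data known. The correlation of deviations between same-numbered arrays was 0.16, -0.32 and 0.17, so the replicate numbers were not taken to pair the mice. Alternatives were each array left out, the replicate block, array weights, the Gapdh gap as covariate, a robust trended variance, quantile, median or cyclic loess normalization, only probe sets at or above percentile 40 of level, no probe sets with a letter suffix, and a threshold of 0.1. The number of arrays limits the precision.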

Additional observations from a re-analysis of the deposited data

Results flagged for a closer look

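The excess of the 3' over the 5' Gapdh control, which entered the genotype fit only as a covariate in an alternative, was above the highest wild type array on knockout 1 (0.668 against 0.125) and, by a small margin, on knockout 3 (0.13 against 0.125). Without knockout 1 the Ccn2 difference was 0.20 and the Junb differences were 0.059 and 0.025.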

How the results depend on the processing

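The count of probe sets past the threshold was 0 in limma and ran from 0 to 1 when single arrays were left out; the 1, without knockout 3 (adjusted p = 0.0447), was no member. It was 0 under the other 10 alternatives, where the smallest adjusted p ran from 0.196, with the replicate block, upward. The replicate block changed no call. No member passed under any alternative (smallest adjusted p = 0.465), and of 173 recomputed member differences 149 kept their direction and 24 turned, of which Fos 160901_at without wild type 3 was the largest in size (0.20). With quantile, median and cyclic loess normalization Jun turned to 0.0046, 0.0097 and 0.0030. Junb 102363_r_at turned to 0.012, 0.029 and 0.0088 under the same settings, and to 0.070 with the Gapdh covariate, where Junb 102362_i_at was 0.034 and Ier2 -0.0027. Dusp1 was -0.0012 after quantile normalization and -0.030 with array weights. Over single omissions the difference ran from -0.32 to 0.20 for Fos 160901_at, -0.17 to 0.047 for Fos 161716_at, -0.060 to 0.059 and -0.074 to 0.025 for Junb, -0.12 to 0.025 for Nr4a1, -0.012 to 0.078 for Ier2 and -0.043 to 0.065 for Dusp1. The filter left out 4 member probe sets, Ccn2 and both of Fos among them. No pair of members passed under the other normalizations (smallest adjusted p = 0.1), where 20 to 23 of 36 correlated above 0. With genotype means, or genotype and replicate means, taken out, pairs had r but no valid permutation test; Fos with Nr4a1 then had r of 0.89 and 0.96. The cause of these turns was not tested.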
